A study of Mus musculus with 3 samples.

Results

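Among GFP+ cells sorted from the neocortex of SstCre/+;RCE mice, 964 of 12324 cells carried unique molecular identifiers (UMIs) of at least 2 of the 3 genes Mef2c, Me3 and Pde5a. The same cells had more than 700 genes, under 10% mitochondrial UMIs and 0 UMIs of Nos1, Tac1 and Neurod6. They are called Mef2c/Me3/Pde5a cells below. Every count and share of the genes in this rule is a description of how the cells were picked. The reporter line turns GFP on in cells in which the Sst promoter has driven Cre, so a sorted cell need not contain Sst mRNA when it is captured. Cells came from mice of 1 genotype, carrying SstCre/+ and the RCE allele, at embryonic day 16.5 (E16.5), postnatal day 1 (P1) and postnatal day 5 (P5). Each stage was 1 library, made from 6 pooled animals at E16.5 and from 3 pooled animals at P1 and at P5. With 1 library per stage there is no replicate, so no test was run, and the intervals given cover counting error only.

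MEF2C is a transcription factor of the MADS-box family that is active in many postmitotic neurons and is required for the maturation of parvalbumin interneurons. ME3 is a mitochondrial malic enzyme, which turns malate into pyruvate, and PDE5A is a phosphodiesterase that breaks down cyclic GMP. ERBB4, the receptor for neuregulins on cortical interneurons of the medial ganglionic eminence, was named as a further marker of the cells. In GRCm38, Mef2c lies at chr13:83504034-83667080 on the plus strand, Me3 at chr7:89632392-89854359 on the plus strand, Pde5a at chr3:122728947-122859374 on the plus strand and Erbb4 at chr1:68032186-69108059 on the minus strand.

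The libraries held 4478 (E16.5), 4440 (P1) and 3406 (P5) cells, with 13429055 to 25638779 UMIs each. The limits on genes and mitochondrial UMIs kept 88.3%, 56.3% and 87.5% of them. Between 1 and 6 cell barcodes were shared by each pair of libraries, and 1 of them belonged to Mef2c/Me3/Pde5a cells in both libraries. No doublets were removed.

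Mef2c/Me3/Pde5a cells were 213 of 3952 kept cells at E16.5 (5.39%, Clopper-Pearson 95% interval 4.71 to 6.14). They were 386 of 2501 at P1 (15.4%, 14.0 to 16.9) and 365 of 2980 at P5 (12.2%, 11.1 to 13.5). The interval at E16.5 lay below both postnatal intervals. With every cell thinned to 2000 UMIs, the shares were 1.80%, 10.3% and 5.98%, leaving out 337, 673 and 537 shallower cells. With the kept cells that had 0 UMIs of Nos1, Tac1 and Neurod6 sorted by depth into 3 groups of equal size, the deepest cells held the largest share at each stage, 7.36% against 4.38% in the shallowest at E16.5, 24.4% against 12.04% at P1 and 18.1% against 13.0% at P5. The order of the stages was the same in the thinned counts. With more than 1000 genes and under 5% mitochondrial UMIs required, the shares were 4.79%, 11.4% and 11.96%, so P1 no longer stood above P5. The part of cell loss at P1 and of the Cell Ranger version, which also differed between stages, was not tested.

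**Figure D1:**
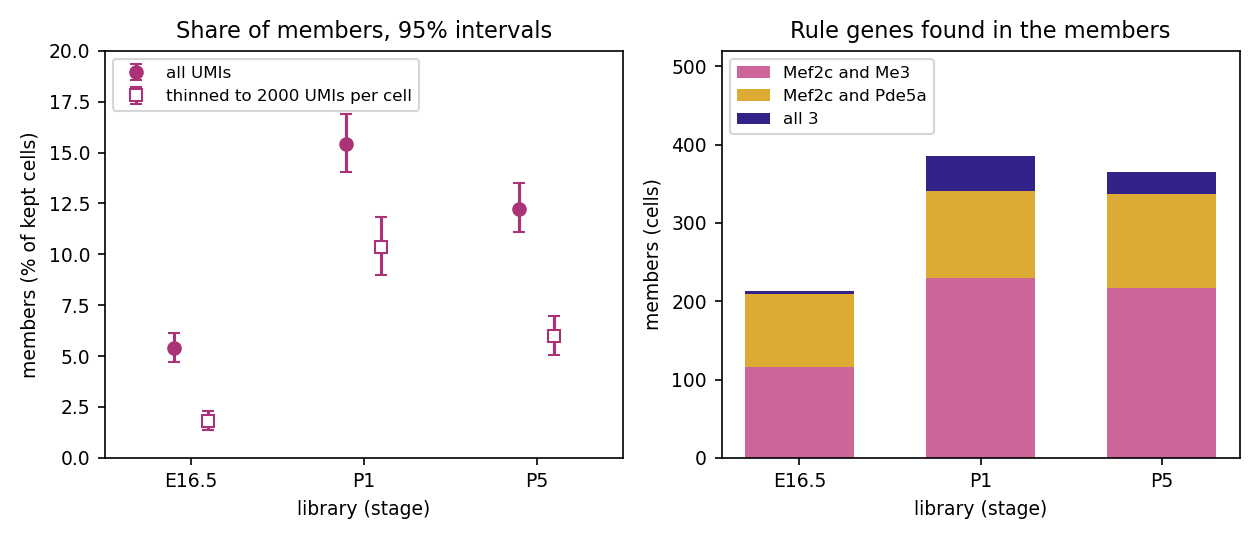
Left, share of kept cells (%, vertical axis) that were Mef2c/Me3/Pde5a cells (members) in each library, from all UMIs (filled) and from 2000 UMIs per cell (open), with Clopper-Pearson 95% intervals. Right, number of members by the rule genes found in them; the E16.5 library has the fewest members, 213, and only 4 with all 3 genes.

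Mef2c was found in every one of these cells, since no cell had Me3 and Pde5a without Mef2c. The pair Mef2c and Me3 accounted for 116, 230 and 217 cells at E16.5, P1 and P5, the pair Mef2c and Pde5a for 93, 111 and 120, and all 3 genes for 4, 45 and 28. Mef2c was in 86.6%, 83.0% and 75.9% of all kept cells, so what set the chosen cells apart was a UMI of Me3 or of Pde5a. Me3 was in 4.23%, 13.3% and 10.97% of kept cells, and Pde5a in 3.09%, 7.20% and 6.11%. Most of the chosen cells with Me3 carried only 1 of its UMIs: 106 of 120, 214 of 275 and 206 of 245 in the order of the stages.

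The share of excitatory reference cells with each gene gives the level that free RNA may reach. These 39, 32 and 21 kept cells had at least 2 of 5 excitatory genes and no Lhx6 UMI. Me3 was in 0, 2 and 2 of them and Pde5a in 1, 1 and 0, with median depths of 11905, 5641.5 and 4954 UMIs. The intervals on so few cells reach 9.03% (E16.5, Me3) and 30.4% (P5, Me3), so the Me3 and Pde5a shares in the sorted cells were not separable from that level. Mef2c, which excitatory neurons also express, was in 66.7%, 90.6% and 95.2% of them.

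Among Mef2c cells without the excluded genes, Me3 was more frequent where Pde5a was also found at P1, at 28.8% (21.9 to 36.6) of 156 cells with Pde5a against 14.4% (12.7 to 16.2) of 1598 without. At P5 the shares were 18.9% (13.0 to 26.2) and 11.9% (10.4 to 13.5), and at E16.5 4.12% (1.13 to 10.2) and 3.79% (3.14 to 4.53). The intervals were apart at P1 only. Median depths of the cells with and without Pde5a differed little, at 3530 and 3306 UMIs at P1.

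The gene after which parvalbumin basket cells are named was nearly absent. Pvalb, which encodes the calcium-binding protein parvalbumin, had a UMI in 1 of the 213 cells of the E16.5 library, 1 of the 386 of P1 and 5 of the 365 of P5. The highest of these shares, 1.37% (0.446 to 3.17) at P5, overlapped that of cells with just 1 of the 3 genes, 0.702% (0.322 to 1.33). Parvalbumin is known to appear in mouse cortex after these ages, and the cells are described here by their rule, with no cell type name. Erbb4 was in 81.7%, 67.1% and 49.0% of them at E16.5, P1 and P5, against 15.4%, 9.38% and 0% of the excitatory reference cells. It was also in 73.0%, 57.6% and 36.3% of cells with just 1 of the 3 genes. In cells thinned to 2000 UMIs the Erbb4 shares were 43.6%, 47.4% and 34.2%. Those of thinned cells with just 1 of the 3 genes were 40.6%, 40.1% and 22.5%, with overlapping intervals at E16.5 and P1.

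Levels were compared with those of kept cells with an Lhx6 UMI, 0 Nos1 UMIs and none of the 3 genes (comparison cells: 340, 96 and 181 at E16.5, P1 and P5). The chosen cells needed no Lhx6 UMI, and 34, 52 and 72 of them had none. LHX6 is the transcription factor that marks interneurons born in the medial ganglionic eminence. The UMIs of each set were summed per library and given as UMIs per 1000000 UMIs of the set (CPM), and ratios are log2 ratios of CPM with 1 CPM added. A gene was called where the ratio was at least 1 in size and the exact Poisson 95% intervals did not overlap, and called throughout where this held in each of the 3 libraries. The comparison cells were shallower, with median depths of 4953, 1868 and 3398 UMIs against 6178, 3814 and 4564. The share of cells with a Mef2c UMI was also lowest in the shallowest group of cells, at 79.7% against 92.6% in the deepest at E16.5. Comparison cells were not limited in Tac1 or Neurod6.

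Of 9861 genes measured in all 3 libraries, 4 were called higher throughout (0.0406%) and 12 lower (0.122%). The 4 higher genes were Gabrg3, Nxph2, Cck and 1500035N22Rik. The lower genes with at least 20 CPM in the comparison cells of each library were Sst, Npy, Pou3f2, Chodl, Col25a1, Car10, Cygb, Fam46a and Pcp4, with Igfbpl1, Nfix and Prokr2 below that level in at least 1 library. With the comparison cells weighted to the depth of the chosen cells, 11 genes were called higher, among them all 4, and 9 lower, among them 7 of the 12, without Pou3f2, Col25a1, Igfbpl1, Nfix and Prokr2.

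Sst, the neuropeptide gene whose promoter drives Cre in these mice, stood at 3028, 1020.2 and 1071 CPM in the order E16.5, P1, P5. In the comparison cells it stood at 6527, 5264 and 2539 CPM, giving log2 ratios of -1.11, -2.37 and -1.24. A UMI of Sst was present in 59.6% (52.7 to 66.3), 56.0% (50.8 to 61.0) and 53.7% (48.4 to 58.9) of Mef2c/Me3/Pde5a cells. The shares in the comparison cells were 90.0%, 91.7% and 87.3%, so the deeper set was the one with fewer Sst cells. After thinning to 2000 UMIs the shares were 51.5%, 47.7% and 47.5% against 90.3%, 95.6% and 80.7%, leaving out 11, 59 and 43 of the chosen cells. Excitatory reference cells held an Sst UMI in 38.5%, 15.6% and 4.76% of cells.

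Npy, a neuropeptide of long-range projecting cells and of other interneurons, stood at 1247, 779 and 663 CPM against 4398, 7449 and 2283 CPM in the comparison cells. Pou3f2, a POU-domain transcription factor, had only 2 UMIs in the chosen cells at E16.5, a log2 ratio of -5.09 with a counting interval of -9.02 to -4.07. At P1 and P5 its levels were 48.8 and 12.03 CPM against 346 and 38.7 CPM. Chodl, which encodes the membrane protein chondrolectin and marks long-range projecting SST+ cells, gave ratios of -1.45, -4.26 and -2.91. These 3 genes belong to the list the study drew up for long-range projecting (LRP) neurons from these same libraries, which is therefore not independent evidence of direction. Of that list, 7 of 11, 9 of 12 and 4 of 12 genes were called lower at E16.5, P1 and P5, where 1.58%, 2.43% and 1.14% of all genes were, and none was called higher. Genes called higher were 1.34%, 0.763% and 1.17% of all genes at the 3 stages.

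Gabrg3, a gamma subunit of the GABA-A receptor, stood at 49.7 CPM (39.6 to 61.5), 133 and 251 CPM over the same stages. The comparison cells stood at 4.11 CPM (1.65 to 8.46), 57.7 and 107, so the ratio was largest at E16.5, at 3.31 against 1.19 and 1.22. Nxph2, a secreted ligand of neurexins, stood at 77.4, 130 and 42.7 CPM against 35.8, 49.5 and 7.17 CPM. Cck, the cholecystokinin gene, was low in both sets, at 20.7, 29.8 and 41.0 CPM against 2.35, 0 and 11.5. A Cck UMI was in 9.86%, 5.96% and 8.49% of the chosen cells, and in 20.5%, 46.9% and 95.2% of excitatory reference cells. The part of free RNA in these UMIs was not tested. In thinned cells the shares were 4.95%, 2.75% and 4.04% against 1.03%, 0% and 1.48% of comparison cells, with overlapping intervals at each stage. At P1 the comparison cells had no Cck UMI, and the level in the chosen cells was at least 2.41-fold that of 3 UMIs. Likewise 1500035N22Rik stood at 41.4, 36.9 and 39.9 CPM against 9.97, 0 and 5.73, at least 2.98-fold the level of 3 UMIs at P1.

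Erbb4 stood at 284, 384 and 219 CPM against 177, 243 and 38.7 CPM, and its ratio was 0.68, 0.66 and 2.47. Its intervals were apart at each stage, but the ratio passed the fold limit at P5 only. Read without a fold limit, a reading chosen after the values were seen, the intervals were apart in all 3 libraries for 42 genes higher (0.426%) and 44 lower (0.446%) in the Mef2c/Me3/Pde5a cells. Besides Erbb4, the higher genes included the MEF2 family member Mef2a, the transcription factors Zeb2 and Tcf4, the glutamate receptor Grm5, the adenylyl cyclase Adcy1 and the potassium channel subunit Kcnip1. Zeb2 stood at 926, 1681 and 838 CPM against 511, 565 and 500 CPM. The lower genes included the transcription factors Sox6, Nr2f2 and Pou3f3. Sox6, which acts downstream of LHX6, stood at 308, 359 and 218 CPM against 497, 495 and 383 CPM.

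**Figure D2:**
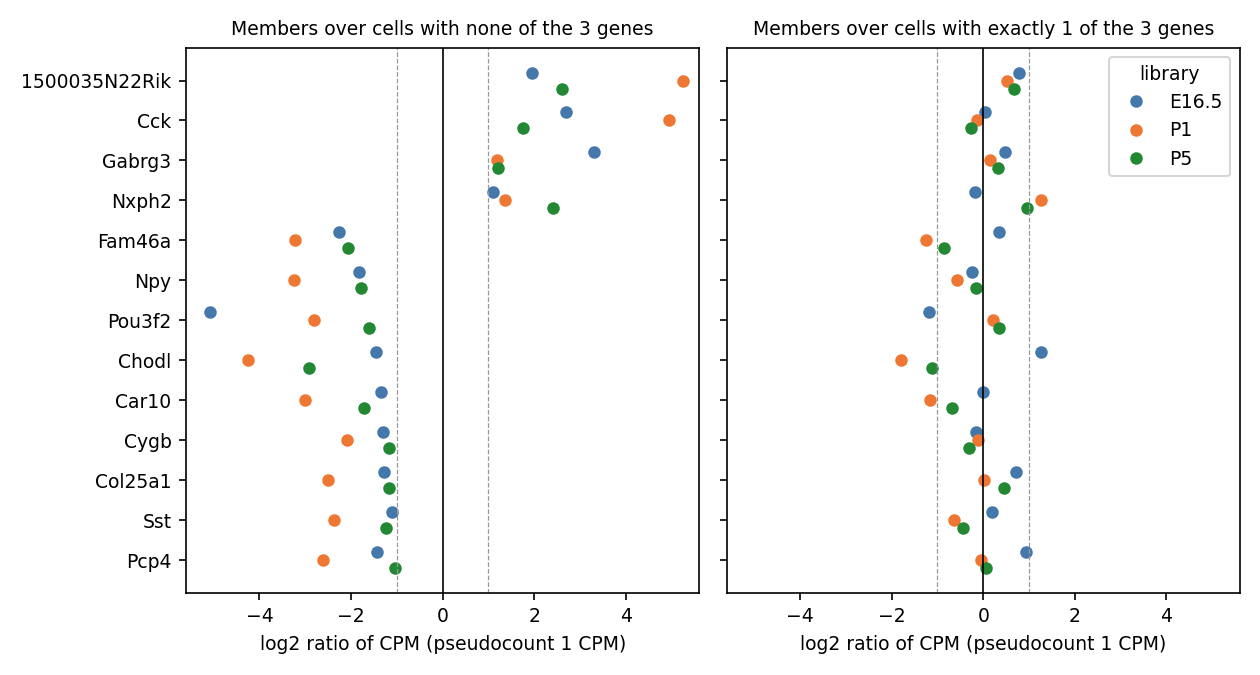
Log2 ratios of CPM (1 CPM added, horizontal axis) of the 13 genes called throughout with at least 20 CPM, in Mef2c/Me3/Pde5a cells (members) over cells with none of the 3 genes (left) and over cells with exactly 1 of them (right), 1 point per library; dashed lines mark ratios of 1 and -1. Every point on the left lies beyond a dashed line (at P1 those of Cck and 1500035N22Rik, with 0 UMIs in the cells with none of the 3 genes, depend on the added CPM), while Sst, for example, moves to 0.20, -0.64 and -0.44 on the right.

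Most of these calls depended on the comparison cells. Cells with a UMI of exactly 1 of the 3 genes, which was Mef2c in over 99% of them, lie just outside the rule. Those with Lhx6 and 0 UMIs of Nos1, Tac1 and Neurod6 (single-gene cells, a comparison chosen after the values were seen) numbered 2579, 1094 and 1282. Their median depths of 5882, 3772 and 4815 UMIs were near those of the cells just inside the rule with exactly 2 genes, 6119, 3812 and 4500 UMIs. Mef2c itself stood at 1192, 3186 and 2093 CPM in the chosen cells and at 1006, 2111 and 1347 CPM in the single-gene cells. Against this set, 1 of 11758 genes was called higher throughout (0.0085%) and 1 lower (0.0085%).

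The higher gene was Klf3, a Krüppel-like transcriptional repressor, at 7.68 CPM (4.09 to 13.1), 24.4 (17.8 to 32.6) and 33.4 (25.5 to 42.9) against 2.19, 9.22 and 13.3 CPM. The ratios were 1.44, 1.31 and 1.26, at low levels in both sets. The lower gene was Nr2f2, the COUP-TFII transcription factor, at 59.1 CPM (48.1 to 71.9), 60.2 (49.5 to 72.5) and 46.5 (37.1 to 57.5). The single-gene cells stood at 138, 175 and 178 CPM, and the ratios were -1.21, -1.53 and -1.91. Nr2f2 was in 19.7%, 8.81% and 9.86% of the chosen cells against 27.8%, 18.0% and 24.1% of single-gene cells. Thinned to 2000 UMIs, the shares were 9.90%, 3.67% and 5.90% against 15.8%, 13.0% and 17.2%, and the excitatory reference cells held 15.4%, 3.12% and 0% before thinning.

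None of the 13 genes plotted against the cells with none of the 3 genes kept its call throughout against the single-gene cells. Gabrg3 stood at 35.2, 121 and 202 CPM in single-gene cells, with ratios of 0.49, 0.14 and 0.31. The Sst ratio changed sign at E16.5, to 0.20, where the single-gene cells stood at 2633 CPM. Nxph2 kept a call at P1 only, with 130 CPM against 53.5, and its E16.5 ratio was -0.18. The list for LRP neurons had median ratios of 0.20, -0.12 and -0.08, against -1.45, -2.53 and -1.06 with the first set. The comparison cells themselves differed from the single-gene cells, with 15 of 11540 genes called higher throughout (0.13%) and 2 lower (0.0173%). Npy, Pou3f2, Chodl, Col25a1, Car10, Pcp4, Fam46a and Prokr2 were among the 15, and Cck and 1500035N22Rik were the 2.

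Read without the fold limit, the intervals were apart throughout for 17 genes higher (0.145%) and 23 lower (0.196%) than in single-gene cells. The higher genes included Etv1, an ETS transcription factor, at 112, 51.0 and 50.3 CPM against 67.6, 29.3 and 28.7 CPM. Sh3rf3, which encodes a ubiquitin ligase of the JNK pathway, stood at 79.2, 190 and 177 CPM against 58.6, 122 and 106 CPM. Fam19a2, a secreted chemokine-like protein gene, stood at 66.2, 103 and 69.5 CPM against 40.8, 61.3 and 32.2 CPM. The ratios of these 3 genes ran from 0.43 to 1.09. Kcnip1, Kcnk2, Cabp1, Adcy1, Grm5, Ptprd, Plxna4, Mef2a, Sox4 and Id4 were others of the 17.

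The lower genes included Reln, the secreted glycoprotein reelin, at 70.3, 267 and 326 CPM against 158, 385 and 505 CPM. Npas1, a bHLH-PAS transcription factor, stood at 67.4, 84.0 and 154 CPM against 139, 107 and 202 CPM. Elfn1, a postsynaptic protein that organises excitatory inputs onto SST+ cells, stood at 129, 195 and 253 CPM against 182, 287 and 338 CPM. Satb1, a chromatin organiser needed by SST+ interneurons, stood at 478, 549 and 607 CPM against 629, 684 and 725 CPM. Cnr1, Pou3f3, Neto1, Sema6a, Grik1, Lypd6b and Npy were also among the 23, as was Pantr1, a non-coding RNA gene next to Pou3f3. In thinned cells, Npas1 was in 12.9%, 8.56% and 16.8% of the chosen cells and in 10%, 6.67% and 38.5% of comparison cells. Satb1 was in 55.0%, 51.7% and 55.6% against 46.9%, 51.1% and 65.2%. Npas1 and Satb1 were thus below the comparison cells at P5 only, with intervals apart for Npas1. The shares of Reln and Elfn1 were below them at E16.5 and P5.

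**Figure D3:**
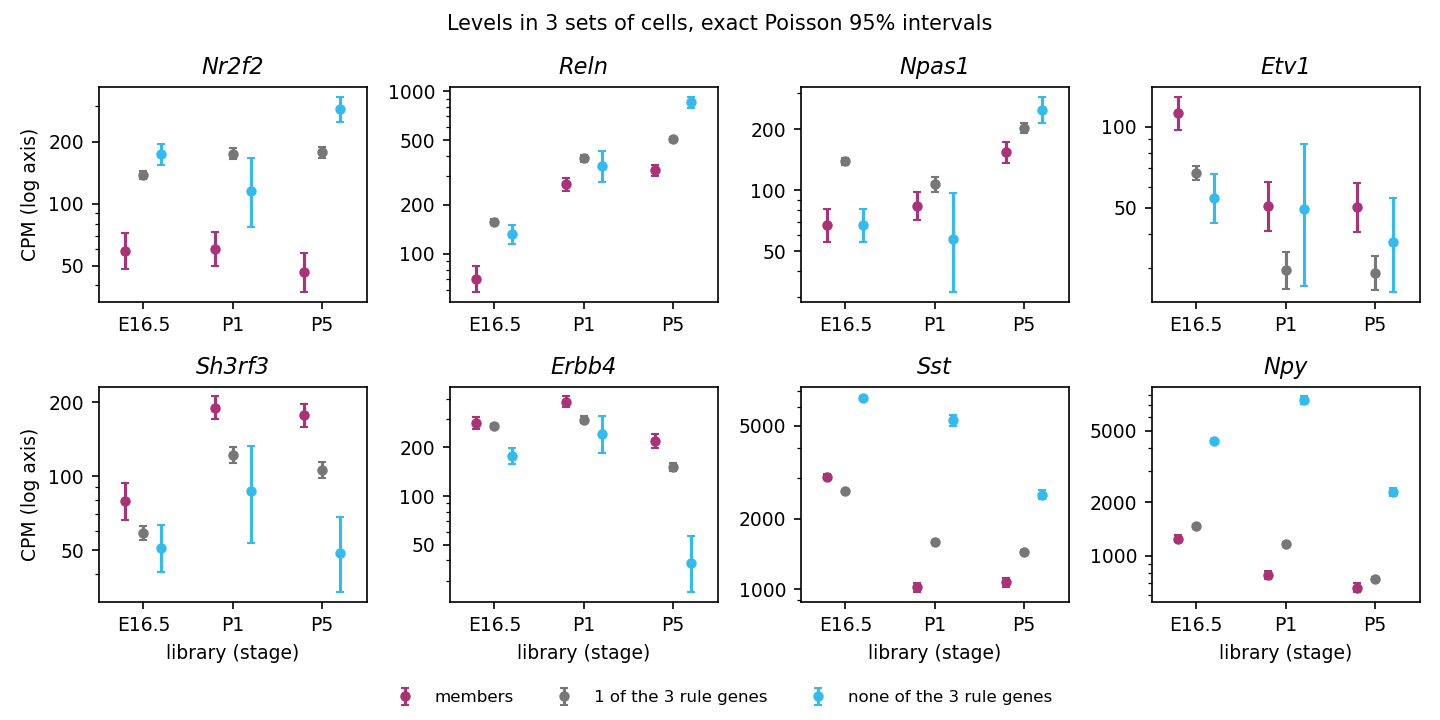
Level (CPM, log axis) of 8 genes in Mef2c/Me3/Pde5a cells (members), in cells with exactly 1 of the 3 rule genes and in cells with none of them, per library, with exact Poisson 95% intervals. Nr2f2 is lowest in members at each stage, at 46.5 to 60.2 CPM, and Sst at P1 and P5 is lower in members than in both other sets.

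Several of these lower genes are on a published list for Martinotti cells, SST+ interneurons whose axons reach the upper cortical layers. That list was drawn up on these libraries and is not independent evidence. Of its 23 genes measured in all 3 libraries, 10 were lower with intervals apart throughout than in single-gene cells and 1, Adcy1, was higher. By the same reading 0.196% of all genes were lower and 0.145% higher. These shares also apply to the non-Martinotti list below. The median ratios of the Martinotti list were -0.35, -0.41 and -0.39, against 0.00, -0.02 and 0.00 for all genes. Of the 27 measured genes of the list for non-Martinotti cells, 6 were higher with intervals apart throughout and none was lower, with medians of 0.17, 0.29 and 0.38. The non-Martinotti list also holds the rule genes Mef2c and Tac1, neither of them among the 6, so it is not independent of the rule. Most of these shifts were under 2-fold: by the fold limit, only Nr2f2 of the Martinotti list was called throughout, and no gene of the non-Martinotti list was. Another Martinotti list of the study, not counted here, holds Etv1, which was higher than in single-gene cells with intervals apart throughout. It also holds Reln, Npas1, Elfn1, Nr2f2 and Satb1, which were lower. A further non-Martinotti list of the study is not counted here either. The Martinotti and non-Martinotti lists that are counted are given against single-gene cells only.

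The same genes were read from the other side, as the share of Mef2c and Lhx6 cells that also met the rule, split by a UMI of another gene, a reading chosen after the values were seen. It uses nearly the same cells as the comparison with single-gene cells. It therefore restates those differences as shares of cells and is not further evidence. Among cells with an Sst UMI, 5.46%, 19.4% and 15.4% met the rule at E16.5, P1 and P5. Among those without, the shares were 9.87%, 33.3% and 26.9%, although these cells were shallower, with 5023, 3034 and 3274 UMIs against 6286, 4470.5 and 5543.5 at the median. The intervals were apart at each stage. Cells with Sh3rf3 met the rule in 10.3%, 31.0% and 25.1% of cases, and those without in 5.05%, 17.8% and 14.4%. Their median depths were 6182.5 and 5813.5 UMIs at E16.5, 4322.5 and 3456 at P1, and 5074 and 4785 at P5.

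For Fam19a2 the shares were 11.4%, 31.9% and 29.1% with a UMI and 5.48%, 20.8% and 17.0% without, again with intervals apart at each stage. For Nr2f2 they were 4.84%, 14.0% and 10.1% with a UMI and 7.17%, 25.3% and 21.1% without. Cells with Nr2f2 were the deeper ones, at 9018 against 3593 UMIs at P1, and the intervals were apart at P1 and P5. At E16.5 the intervals were 3.41 to 6.64 and 6.08 to 8.39, which overlap.

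**Figure D4:**
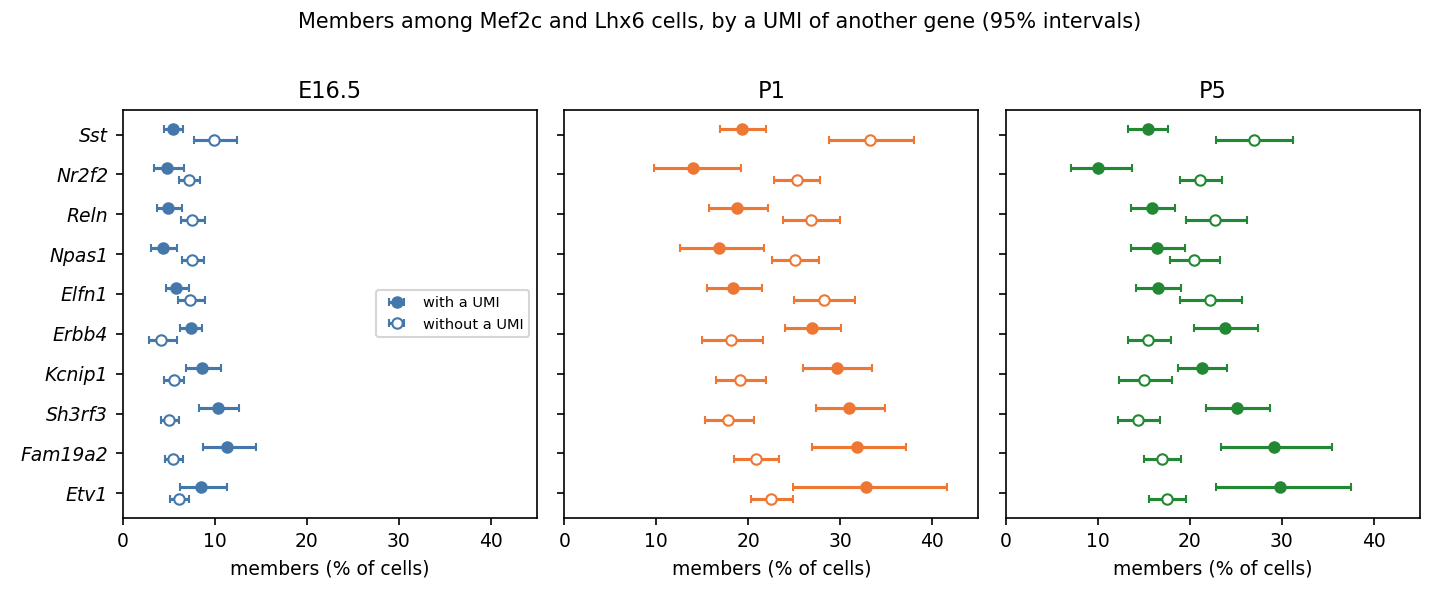
Share of Mef2c and Lhx6 cells (%, horizontal axis) that were Mef2c/Me3/Pde5a cells (members), among cells with (filled) and without (open) a UMI of the gene on the vertical axis, per library, with Clopper-Pearson 95% intervals. The share is lower with Sst than without (19.4% and 33.3% at P1) and higher with Sh3rf3 than without (31.0% and 17.8% at P1). These shares restate the comparison with single-gene cells and are not further evidence.

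Basket cell markers were called higher more often than genes at large, but none at every stage. Of 18 genes on a list of parvalbumin basket markers, 11, 11 and 15 were measured against the comparison cells at E16.5, P1 and P5, with 4, 1 and 3 called higher and 0, 0 and 1 called lower. Over all genes 1.34%, 0.763% and 1.17% were called higher. The median ratios were 0.79, 0.31 and 0.72, against -0.03, -0.04 and 0.02 for all genes. Ppargc1a, a coactivator of mitochondrial genes that parvalbumin cells require, stood at 49.1, 98.7 and 214 CPM against 17.6, 61.8 and 57.3 CPM, and was called higher at E16.5 and P5. Lgi2, a secreted synaptic protein gene, stood at 66.2, 68.8 and 120 CPM against 4.11, 32.98 and 43.0 CPM, and was called at E16.5 and P5. Cplx1, a complexin of presynaptic vesicle release, stood at 78.0, 155 and 518 CPM against 44.6, 66.0 and 265 CPM, with intervals apart at each stage.

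The potassium channel genes Kcnc1 and Kcnc2, whose Kv3 channels serve fast spiking, gave ratios of 0.06, -0.20 and 0.11 and of -0.38, 0.31 and 0.72, none of them called. Syt2, the vesicle calcium sensor of basket cell terminals, was called lower at P5, with 3.28 CPM against 17.2. Against single-gene cells the list had medians of 0.30, 0.13 and 0.13, with 3, 0 and 0 genes called higher, where 0.783%, 0.17% and 0.283% of all genes were. Erbb4 gave 0.07, 0.37 and 0.53 there, with intervals apart at P1 and P5.

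Genes related by function to those of the rule gave no call at every stage. Of the MEF2 family and its class IIa histone deacetylase partners, 6 genes other than Mef2c were measured, and the one called was Mef2a at P1. Mef2a stood at 219, 276 and 198 CPM against 117, 132 and 128 CPM. The list of phosphodiesterases and cGMP signalling, without Pde5a, had 17, 19 and 18 genes measured, of which 2, 1 and 0 were called higher and 1, 1 and 0 lower, beside 1.34%, 0.763% and 1.17% higher and 1.58%, 2.43% and 1.14% lower over all genes. Pde1a, a calcium-dependent phosphodiesterase gene, stood at 8.87, 19.5 and 55.2 CPM against 35.2, 140 and 94.6 CPM. Gucy1a1, a subunit of the cGMP-making guanylyl cyclase, gave ratios of 0.63, -0.62 and 0.96 and was not called. Of the malic enzymes and pyruvate genes without Me3, 1 of 11 measured was called higher at P1 and 1 of 12 lower at P5. That lower gene was Me1, the cytosolic malic enzyme, at 8.75 CPM against 27.2. Of 8 genes of the neuregulin and ErbB families, 4 were measured, and Erbb4 at P5 was the one called.

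Other neuronal gene groups held calls at single stages, few of which held at all 3. Of the list of transcription factors of the medial ganglionic eminence and interneurons, 4 genes were called higher at each stage and 10, 9 and 3 lower, of 48, 43 and 39 measured. Over all genes, 1.34%, 0.763% and 1.17% were called higher and 1.58%, 2.43% and 1.14% lower, so both counts of transcription factors were above those shares. Only Pou3f2 and Nfix were called throughout, both lower. Among 11 GABA-A receptor subunits measured in all 3 libraries Gabrg3 was the one called throughout. Gabra5 stood at 27.8, 49.3 and 70.0 CPM against 3.52, 32.98 and 35.8 CPM and was called at E16.5. Gabra2 stood at 123, 81.3 and 104 CPM against 255, 289 and 98.9 CPM and was called lower at E16.5 and P1. The genes that make, load and take up GABA had no call in 5, 6 and 6 measured, with Gad1 at 322, 258 and 153 CPM against 276, 247 and 128 CPM.

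Of 33 synaptic adhesion genes measured throughout, Nxph2 was the one called throughout, and of 22 glutamate receptor genes none was. Of 17 potassium channel genes measured throughout none was called throughout, and of 8 sodium channel genes Scn1a was called higher at P5, at 113 CPM against 51.6, and Scn9a lower at E16.5 and P1, with ratios of -1.03 and -1.74. Of 19 genes of interneuron migration, Igfbpl1 was called lower throughout, at 138, 53.1 and 2.19 CPM against 819, 231 and 12.9 CPM. Perineuronal net genes had no call, with 4 of 8 measured at each stage. Immediate early genes had 1 call, lower at P1. Calls at single stages took in 1.34%, 0.763% and 1.17% of all genes higher and 1.58%, 2.43% and 1.14% lower. Calls throughout took in 0.0406% higher and 0.122% lower.

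Other sets of Lhx6 cells were used to show where the Mef2c/Me3/Pde5a cells differ. Cells with a UMI of both Reln and Nr2f2, with Lhx6 and without Nos1, numbered 430, 154 and 341 once Mef2c/Me3/Pde5a cells were left out, and some of them are also single-gene cells. The Reln and Nr2f2 cells were deeper than the chosen cells, at median depths of 7433, 9588 and 5778 UMIs against 6178, 3814 and 4564. Against the Reln and Nr2f2 cells, 23 of 10529 genes were called higher throughout (0.218%) and 10 lower (0.095%), with Reln and Nr2f2 left out. Sh3rf3 stood at 22.8, 40.0 and 55.1 CPM there, giving ratios of 1.75, 2.22 and 1.66 in the Mef2c/Me3/Pde5a cells. Fam19a2 gave 1.53, 1.86 and 1.75, and Nxph2 gave 1.20, 4.05 and 2.60.

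Gucy1a1 was also called higher throughout, with 19.6, 17.9 and 1.90 CPM in the Reln and Nr2f2 cells and ratios of 1.90, 2.65 and 4.57. Its partner subunit Gucy1b1 was called too. Npas1 was called lower, with 222, 190 and 331 CPM in the Reln and Nr2f2 cells, as were Cnr1, the cannabinoid receptor gene, and Unc13c, a gene of vesicle priming. Erbb4 stood at 148, 88.3 and 33.3 CPM in those cells, with ratios of 0.94, 2.11 and 2.68.

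Cells with at least 2 Tac1 UMIs, the set that the rule shuts out, numbered 80, 43 and 74. Tac1 encodes the tachykinin precursor. The median depths of these cells were 6177, 6207 and 4989.5 UMIs. Against them 7 of 9540 genes were called higher throughout (0.0734%) and 4 lower (0.0419%). Npas1 was higher, at 67.4, 84.0 and 154 CPM against 9.35, 6.64 and 19.9 CPM. The others called higher were Masp1, Gda, Tle4, Col19a1, Grin3a and Neto2, and those lower were B3glct, Col26a1, Kirrel3 and Robo1. Sh3rf3 gave ratios of 0.01, 0.31 and -0.08 against these cells and Erbb4 gave -0.31, -0.81 and -0.94. Without the limit on Tac1 alone, 34, 22 and 52 further cells would have met the rule.

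Within the Mef2c/Me3/Pde5a cells, those with Me3 and not Pde5a were set beside those with Pde5a and not Me3. Of 8947 genes, 0 were called throughout in either direction (0%), so the gene by which a cell entered went with no call that held at each stage. By library, 37, 17 and 29 genes were called higher and 38, 34 and 24 lower at E16.5, P1 and P5, of 9687, 10041 and 10043 genes (0.382%, 0.169% and 0.289% higher, 0.392%, 0.339% and 0.239% lower). The transcription factor gene Nfib was the one with intervals apart throughout (0.0112%), at 124, 40.3 and 25.2 CPM in cells with Me3 against 185, 121 and 56.7 CPM in cells with Pde5a. Erbb4 stood at 288, 390 and 188 CPM against 268, 368 and 264 CPM.

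Cells picked by these genes lay near each other in other genes more often at P1 and P5 than at E16.5. Among the 30 nearest neighbours of each cell in 15 principal components of 2000 variable genes, without the rule genes, 8.72%, 33.1% and 24.2% were also Mef2c/Me3/Pde5a cells. These cells were 5.39%, 15.4% and 12.2% of kept cells. Most neighbours were other cells at each stage. Reln and Nr2f2 cells, 10.9%, 6.16% and 11.4% of kept cells, had 40.3%, 43.7% and 62.5% of their neighbours in the same set. Their defining genes are not rule genes and were not left out, so these shares are not like for like. Cells with at least 2 Nos1 UMIs, 0.734%, 12.3% and 15.6% of kept cells, had 24.1%, 80.3% and 90.1%. Cells with at least 2 Tac1 UMIs, 2.02%, 1.72% and 2.48% of kept cells, had 8.88%, 30.5% and 21.6%. Comparison cells, 8.60%, 3.84% and 6.07% of kept cells, had 25.7%, 8.78% and 13.8%. For a set of as many other kept cells, each the next in total UMIs to one of the chosen cells, the share of neighbours from the same set was 6.71%, 17.1% and 14.1%.

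The difference from the comparison cells also moved with stage, as values of 3 libraries that cannot be told apart from their depth or preparation. Zbtb20, a zinc finger transcription factor gene, went from a ratio of -2.63 to -0.57 and 0.94 over the stages. Its level was 82.2, 693 and 314 CPM against 515, 1026 and 163 CPM. Thsd7a, a thrombospondin-repeat protein gene, went from -0.56 to 1.03 and 2.35, with levels of 86.3, 270.3 and 317 CPM in the chosen cells and 128, 132 and 61.6 CPM in the comparison cells. Fam135b, Pcdh15 and Kcnh7 were the others of the 5 genes whose ratio grew most.

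In the other direction, Cort, the cortistatin gene, went from 3.29 to 0.77 and 0.60. Cort stood at 9.38, 74.2 and 388 CPM in the comparison cells and at 100.5, 127 and 591 CPM in the chosen cells. Gas7, a gene of neurite outgrowth, went from 2.09 to 0.76 and -0.72, and Lgi2 from 3.72 to 1.04 and 1.46. Igfbp4, an insulin-like growth factor binding protein gene, went from 1.49 to 0.19 and -1.18, and Fxyd7, a modulator of the sodium pump, from 1.29 to -0.26 and -0.89.

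Markers of excitatory neurons, microglia, astrocytes and vessels were low in the Mef2c/Me3/Pde5a cells. The 11 excitatory genes other than Neurod6 summed to 2.96, 6.51 and 2.73 CPM, with 4, 6 and 2 of them found, against 1724, 1988 and 1825 CPM in the excitatory reference cells. Microglia genes summed to 0, 0.542 and 0.547 CPM, astrocyte and radial glia genes to 4.14, 9.22 and 8.20 CPM, and endothelial and mural genes to 3.55, 8.67 and 13.7 CPM. Oligodendrocyte lineage genes summed to 29.6, 30.4 and 35.6 CPM, against 48.1, 49.5 and 53.0 CPM in the comparison cells, with Olig2, Pdgfra and Sox10 at 0. Genes of interneurons from the caudal ganglionic eminence were not near 0 and summed to 112, 90.5 and 112 CPM, against 230, 173 and 332 CPM in the comparison cells. Nr2f2 and Cck made up most of that sum, while Prox1, the defining gene of the list, had 1, 0 and 1 UMIs and Vip had none. Lhx6 had no UMI in 34, 52 and 72 of the Mef2c/Me3/Pde5a cells, which is 15.96%, 13.5% and 19.7% of them.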

How the data were processed

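Single-cell 3′ RNA sequencing (10x Genomics) was done on GFP+ neocortical cells, with 1 library per stage and no replicate. The authors aligned reads to GRCm38 with Cell Ranger (3.1.0 for E16.5 and P5, 3.0.2 for P1, per the file headers) and deposited raw UMI counts for 31053 genes per cell. Cells with more than 700 genes and under 10% mitochondrial UMIs were kept. UMIs were summed over cells of a set within each library and scaled to the total of the set (CPM), and log2 ratios used a pseudocount of 1 CPM. A gene entered with at least 10 UMIs over both sets in each library. Rule genes, mitochondrial (13), ribosomal protein (95) and Y-linked genes were not counted among calls. Because each stage is 1 library and cells were picked by measured UMIs, no test was run, and Poisson and Clopper-Pearson 95% intervals cover counting error only. No doublet caller was run.

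Genes were named if they were markers or rule genes, if they were among up to 15 called genes in each direction with at least 20 CPM in the higher set, if they were among the 5 whose ratio grew or shrank most between E16.5 and P5 with at least 50 CPM, or if they belonged to a list. Genes named from the reading without a fold limit, and from the other comparison sets, were chosen after their values were seen. The cells, the rule and the gene lists were chosen with earlier results of these data known. Alternatives varied the quality limits, the rule, the comparison cells, depth, doublets, the pseudocount, the filter and the scaling. The scripts were tested on simulated data. Python 3.11.15, numpy 2.4.6, scipy 1.17.1, pandas 2.3.3, scikit-learn 1.9.0 and matplotlib 3.10.9 were used.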

Additional observations from a re-analysis of the deposited data

Results flagged for a closer look

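For 2 genes the ratio of Mef2c/Me3/Pde5a cells over comparison cells was called in opposite directions at different stages. Vstm2a, a transmembrane protein gene, had log2 ratios of 1.03, -0.45 and -1.11 in the order E16.5, P1, P5, called higher at E16.5 and lower at P5. Igfbp4 had 1.49, 0.19 and -1.18, likewise called higher at E16.5 and lower at P5. The difference between stages was not tested, since each stage is 1 library.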

How the results depend on the processing

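The main counts were 4 genes higher and 12 lower throughout. They were 1 and 4 with more than 1000 genes and under 5% mitochondrial UMIs, 1 and 8 when all 3 rule genes were required (0 of the 4 and 4 of the 12 shared), 11 and 9 when comparison cells were weighted to the depth of the Mef2c/Me3/Pde5a cells, and 3 and 17 from the mean of single-cell CPM, where Gabrg3 and 1500035N22Rik lost their calls. With single-gene cells as the comparison they were 1 and 1, and with comparison cells also lacking Tac1, Neurod6, Npy, Chodl and Pou3f2 they were 0 and 1 (both sets chosen after seeing the data); the latter left 13 comparison cells at P1 and moved the median of all genes by 0.52. Requiring the call in only 2 libraries, each left out in turn (also added later), gave 9 to 22 higher and 19 to 58 lower. Kept-cell shares were 4.79%, 11.4% and 11.96% at E16.5, P1 and P5 under the stricter quality limits, 0.101%, 1.80% and 0.940% for all 3 genes, 4.53%, 13.4% and 9.83% with an Lhx6 UMI required, and 1.80%, 10.3% and 5.98% after thinning to 2000 UMIs. The neighbour share was 34.3% at P1 with 15 neighbours, and 35.3% at P1 and 25.7% at P5 with 30 components.

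Of 1125 ratios of named genes under the alternatives, 906 stayed within counting error, 189 moved and 30 that had been called changed sign. Sign changes of ratios that had not been called were not counted apart and lie among the 906 or the 189. Igfbp4 at P5 was 0.66 under the stricter limits, and Cck at E16.5 was -1.74 with all 3 genes (4 cells, median of all genes -0.19). Over single-gene cells, the ratio was -0.13 at P1 and -0.26 at P5 for Cck, -0.18 at E16.5 for Nxph2, 0.34 at E16.5 for Fam46a, 0.22 at P1 and 0.35 at P5 for Pou3f2, 1.25 at E16.5 for Chodl, 0.0044 at E16.5 for Car10, 0.71, 0.0087 and 0.45 for Col25a1, 0.20 at E16.5 for Sst, 0.94 at E16.5 and 0.071 at P5 for Pcp4, and 0.040 at P5 for Igfbp4. Over the set lacking 5 further genes, it was -1.49 at P1 for Gabrg3, -0.13 at E16.5 and -0.95 at P1 for Nxph2, 0.40 at E16.5 and 3.43 at P1 for Fam46a, 4.40 at P1 for Car10, 1.08 at P1 for Cygb, 2.30, 4.73 and 0.94 for Col25a1, 0.62 at E16.5 for Sst, 0.94 at E16.5 for Pcp4 and 0.0084 at E16.5 for Pcdh15. The cause was not tested. No paired analysis was possible because each stage is 1 library.

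Most Mef2c/Me3/Pde5a cells with Me3 had 1 of its UMIs, and after thinning to 2000 UMIs the share of kept cells that met the rule was 1.80% at E16.5.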

Other observations

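Chandelier cell markers had median ratios of -0.19, -0.65 and -0.13 in Mef2c/Me3/Pde5a cells over comparison cells at E16.5, P1 and P5. Of 8 genes, 4, 5 and 4 were measured, and the calls were Pthlh, higher, and Nkx2-1, lower, both at E16.5. The list of stress genes that the study drew up had medians of -0.21, -0.63 and -0.28, with 1 of 12 genes, Atp2c1, called lower at P1 and at P5. Of all genes, 1.34%, 0.763% and 1.17% were called higher and 1.58%, 2.43% and 1.14% lower.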
